A study of Homo sapiens with 8 samples.

Results

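The comparison described here is that of U-937 cells given all-trans retinoic acid (ATRA) alone with U-937 cells given vehicle alone. It was made in 4 of the 8 RNA-sequencing libraries of the study. U-937 is an established human leukaemia line that its labels describe as pro-monocytic, that is, close to the precursors of monocytes, and it grows in suspension as a single transformed line rather than as a population of primary cells. The ATRA group had 2 libraries from cells exposed for 72 h to 1 µM ATRA, which was dissolved in DMSO. The vehicle group had 2 libraries from cells exposed for the same 72 h to PBS and DMSO, the solvents of both compounds used in the study. The other 4 libraries came from cells given 250 µM L-ascorbic acid (LAA, dissolved in PBS) without or with 1 µM ATRA, and serve here to show the ATRA effect in libraries that the main comparison does not use. The genes compared were those that passed a filter on low counts, 14995 of the 61125 genes in the count table.

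ATRA is the carboxylic acid form of vitamin A. It enters the nucleus and binds the retinoic acid receptors RARA, RARB and RARG, which sit on DNA as pairs with the retinoid X receptors. Without ligand such a pair holds co-repressors, and with ligand it exchanges them for co-activators, so that genes with a receptor site nearby are transcribed. In myeloid leukaemia cells ATRA is known for driving maturation toward cells that resemble neutrophils or monocytes, with loss of growth, and ATRA is in clinical use for acute promyelocytic leukaemia.

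Library totals over the 8 libraries lay between 18462552 and 24166770 estimated counts, and the highest was ATRA replicate 2. The 2 vehicle libraries differed by a median of 0.128 per gene on the log2 scale and the 2 ATRA libraries by 0.209. On the first principal component of all 8 libraries the 4 libraries with ATRA lay apart from the 4 without it. Mitochondrially encoded transcripts took 4.22% and 4.11% of the vehicle libraries and 4.45% and 3.90% of the ATRA libraries. Levels below are normalised read counts in CPM (counts scaled to a common library size, TMM-normalised), given for replicate 1 and then replicate 2, and changes are log2 fold changes ± standard error from a model over all 8 libraries. A gene is said to have risen or fallen where its adjusted p was under 0.05, and for each such gene named below both ATRA libraries lay on the same side of both vehicle libraries. Whether replicates came from separate cultures is not stated, and a p-value here measures no more than how far these samples vary, possibly for technical reasons. In RNA from a whole culture, fewer cells of a kind and less RNA per cell cannot be told apart.

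The myeloid label was checked first. ELANE and CTSG, 2 serine proteases of immature myeloid granules, stood at 2082 and 2131 CPM and at 1825 and 1782 CPM in vehicle, and CD4 and CD33, surface proteins of the monocytic and myeloid lineage, at 291 and 290 CPM and at 47.6 and 44.9 CPM. MPO, the peroxidase that usually marks myeloid cells, was nearly absent, at 0.433 and 0.437 CPM in vehicle and 0.387 and 0.388 CPM with ATRA. CD14, a receptor of mature monocytes, had 3 counts in each group and was not tested. Of 33 markers of other lineages, 13 passed the filter, and their summed level was between 672 and 723 CPM in vehicle and between 546 and 583 CPM with ATRA. HBB, PF4, CD3D, CD3E, MS4A1 and KRT19, which define red cells, platelets, T cells, B cells and epithelium, had no counts in either group. Among the 13 tested markers 2 were called higher (15.4%) and 4 lower (30.8%), next to 21.9% and 21.0% of all tested genes. Nothing is read from these counts, and that of the rises was smaller without vehicle replicate 1, vehicle replicate 2 or ATRA replicate 2. The most abundant of those called was TPSAB1, a mast cell tryptase with a near-identical neighbour that makes its read assignment uncertain, which fell from 314 and 350 CPM to 97.4 and 88.8 CPM.

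ATRA changed a large part of the transcriptome of these cells, in both directions about equally by number of genes. In edgeR's quasi-likelihood test 6428 of 14995 genes passed, which is 42.9% of those tested. Higher with ATRA were 3280 genes (21.9%) and lower were 3148 (21.0%), and at an unadjusted p under 0.05 there were 7511. At least a 2-fold change was seen in 2173 genes (14.5%), with 1269 higher (8.46%) and 904 lower (6.03%). The median log2 fold change over all tested genes was -0.0036. TMM scaling places the bulk of changes near 0, so this median and part of the balance of directions follow from it. A gain or loss of RNA in the whole cell would not be seen in these values. In 10783 genes (71.9%) the 2 groups did not overlap, so a gap between the libraries alone marks no gene as particular. Among called genes 15 had overlapping groups. The median change was 0.81 in the genes that rose and -0.69 in those that fell, and 1036 rises and 1228 falls were under 1.5-fold.

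Changes are given next by the level in vehicle. Of genes under 1 CPM in vehicle, 17.3% rose and 3.33% fell by at least 2-fold. Between 5 and 20 CPM these shares were 8.28% and 9.03%, and above 100 CPM they were 4.61% and 3.99%. Of the 149 genes that rose at least 16-fold, 136 were under 1 CPM in vehicle. No count was seen in either vehicle library for 62 of the genes that rose, and no count in either ATRA library for 35 of those that fell. A gene under 1 CPM in vehicle that reached at least 10 CPM with ATRA was found 33 times, and the opposite course 3 times. The filter on low counts admits a gene through either group, so a gene near silence in vehicle mostly entered the test through a group where it is higher and had little room to fall, and nothing is read from the imbalance at that level. Of 12324 protein-coding genes tested 47.7% were called, of 613 long intergenic RNAs 23.0% and of 793 antisense RNAs 21.3%, and the difference between kinds was not tested. Antisense RNAs share reads with the opposite gene where strand is not kept, and the strand setting is not given in the sources used here.

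**Figure D1:**
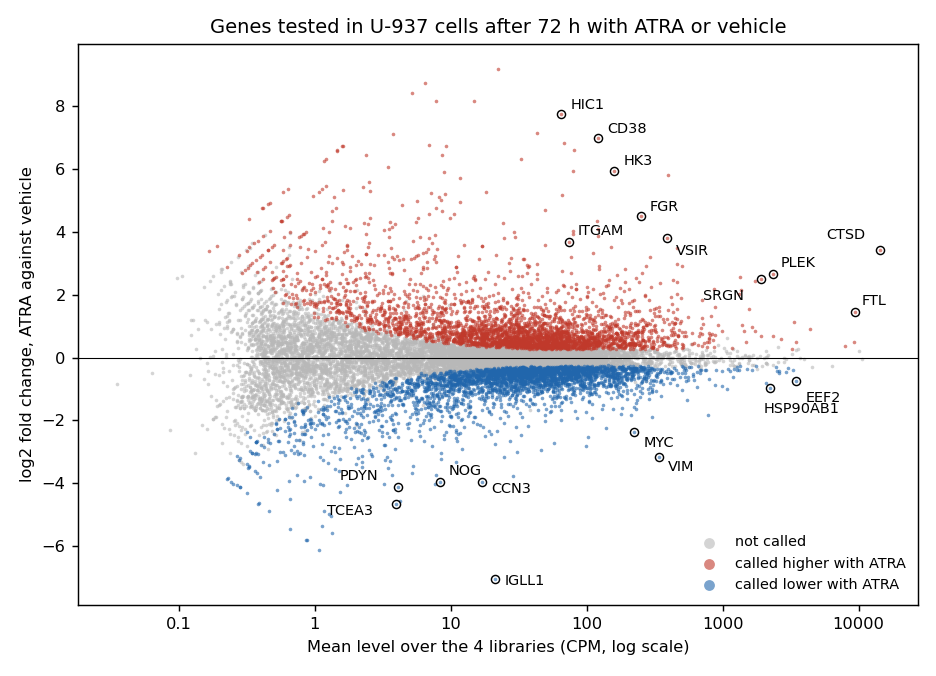
Each point is a gene, placed by its mean level over the 4 libraries (x, CPM on a log scale) and its log2 fold change with ATRA (y), in red if called higher, blue if called lower and grey if not called; 134 tested genes with no counts in one of the groups are left out. Black rings mark named genes, and the largest rises lie at mean levels far below CTSD and FTL, the most abundant genes that rose.

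4 genes known from the retinoid response of myeloid cells, CD38, TGM2, HIC1 and ITGAM, were followed by name. CD38, the surface enzyme that turns NAD into cyclic ADP-ribose and a direct retinoid target, was at 1.68 and 2.13 CPM in vehicle and 253 and 227 CPM with ATRA, a log2 fold change of 6.97 ± 0.16 (adjusted p = 1.28e-10). This was the smallest adjusted p of all tested genes. HIC1, a zinc-finger repressor at chromosome 17, 2054154 to 2063241 (GRCh38, GENCODE 29 annotation), went from 0.529 and 0.679 CPM to 154 and 105 CPM, a change of 7.73 ± 0.27. TGM2, which encodes the protein-crosslinking enzyme transglutaminase 2, had no counts in vehicle while the ATRA libraries held 170 and 129 CPM, at least 2064-fold more when the vehicle group is set to a floor of 3 counts. ITGAM, the alpha chain of the CD11b/CD18 integrin of mature myeloid cells, was already present at 10.2 and 11.5 CPM and reached 154 and 122 CPM, a change of 3.67 ± 0.15. All 4 genes were far apart between the groups, and in each of them replicate 1 of the ATRA group was the higher ATRA library.

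The largest rises were in genes that vehicle cells hardly transcribed. A ranking by fold favours such genes, so nothing is read from that. DAAM2, a formin-family regulator of actin and Wnt signalling, had no vehicle counts while ATRA libraries held 69.3 and 55.9 CPM, at least 864-fold more. PTGES, the inducible synthase of prostaglandin E2, was absent from vehicle and at 8.18 and 8.85 CPM with ATRA, and ARL14EPL was absent from vehicle and at 5.70 and 6.21 CPM with ATRA. SIGLEC11, an inhibitory sialic-acid receptor, went from no counts to 23.8 and 21.6 CPM, and SIGLEC16, its close copy annotated as a pseudogene, from 0.0963 and 0.146 CPM to 14.9 and 12.8 CPM. The 2 share long near-identical stretches, so how the reads were split between them is uncertain. CCL24, a chemokine of the eotaxin group, had 3 counts in vehicle and reached 42.8 and 46.7 CPM, a ratio of 621 with a 95% counting interval from 212 to 3012. VSIG4, a complement receptor of tissue macrophages, and LGALS3BP, a secreted galectin-binding glycoprotein, had 1 vehicle count each and ratios of 534 (interval 95.4 to 21119) and 425 (interval 75.9 to 16839). Those vehicle counts came from 1 library in each case. The fitted log2 fold change of CCL24 was 9.15 with all libraries, 12.80 without vehicle replicate 1 and 8.21 without vehicle replicate 2; that of VSIG4 was 8.73, 11.01 and 7.89, and that of LGALS3BP was 8.41, 7.56 and 10.68. The intervals and floors cover counting error only.

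The genes listed as the largest falls had to average at least 5 CPM in the higher group. That vehicle cells expressed them follows from this rule. IGLL1, the surrogate immunoglobulin light chain of early B-cell precursors, went from 44.6 and 40.2 CPM to 0.277 and 0.345 CPM, a change of -7.05 ± 0.31 (adjusted p = 7.57e-09). NOG and CCN3, both secreted proteins that bind growth factors, fell from 15.4 and 15.8 CPM to 1.11 and 0.906 CPM and from 32.9 and 31.0 CPM to 2.10 and 2.03 CPM. PDYN, the precursor of dynorphin peptides, went from 7.75 and 7.66 CPM to 0.442 and 0.431 CPM. TCEA3, a transcription elongation factor, SUGCT, a mitochondrial coenzyme A transferase, and the non-coding RNA LINC01226 had log2 fold changes of -4.67, -4.02 and -4.57. EIF3CL was at 22.5 and 34.3 CPM in vehicle and had no counts with ATRA. It is a near-identical copy of the translation factor gene EIF3C, which was at 475 and 471 CPM in vehicle and 334 and 272 CPM with ATRA, so the split of reads between the 2 genes is uncertain.

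**Figure D2:**
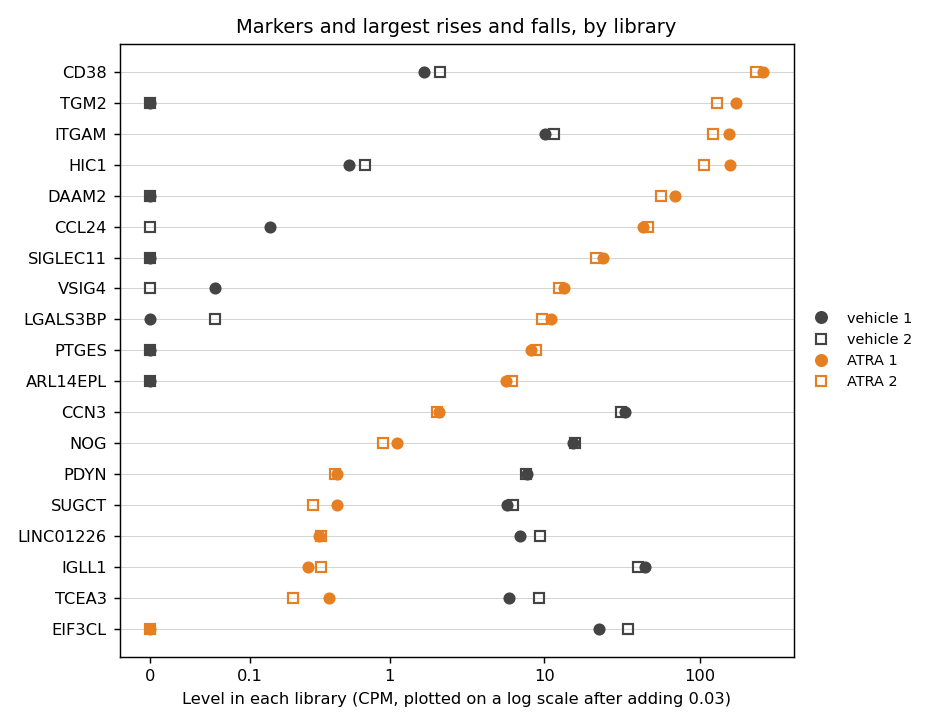
CPM in each of the 4 libraries (x, log scale after adding 0.03) for the 4 markers and the genes with the largest rises and falls (y), with vehicle in grey and ATRA in orange, filled circles for replicate 1 and open squares for replicate 2. In every gene shown the 2 ATRA libraries lie together and apart from the 2 vehicle libraries, with 5 genes at 0 in both vehicle libraries and EIF3CL at 0 in both ATRA libraries.

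In CPM, which is a relative measure, the largest change was that of a lysosomal protease. CTSD, cathepsin D, was at 2437 and 2542 CPM in vehicle and 27729 and 25117 CPM with ATRA, a change of 3.41 ± 0.11 (adjusted p = 5.75e-10). Per length, in the authors' deposited FPKM, its mean went from 1500 to 17860, and its rank among the tested genes from 116 to 3. FTL, the ferritin light chain that stores iron, was at 4774 and 5305 CPM and rose to 12891 and 14488 CPM, from rank 4 to rank 1 by FPKM. PLEK, a protein kinase C substrate of platelets and leukocytes, SRGN, the proteoglycan that packs granule contents, SCD, the fatty acid desaturase, and ACTB, cytoplasmic actin, were the others among the 6 genes that gained most. PLEK went from 661 and 639 CPM to 3856 and 4306 CPM, and SRGN from 561 and 590 CPM to 2682 and 3871 CPM. Set against the common library size that CPM refers to, the 6 together made up 1.94% in vehicle and 6.40% with ATRA. Of the CPM summed over all tested genes, a different base, genes called higher held 21.6% in vehicle and 38.0% with ATRA. Genes called lower held 29.5% and 17.8%.

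The 6 genes that lost most CPM lost far less than CTSD gained. EEF2, the translocase of the ribosome, fell from 4395 and 4292 CPM to 2989 and 2248 CPM, and HSP90AB1, a chaperone, from 2938 and 2999 CPM to 1554 and 1500 CPM. GLO1, which detoxifies methylglyoxal, fell by 0.82 on the log2 scale. RPL4 and RPS2, ribosomal proteins, fell by 0.47 and 0.49. ENO1, the glycolytic enolase, fell by 0.41 (adjusted p = 0.0368), and this call was lost without vehicle replicate 1, vehicle replicate 2, LAA replicate 1, LAA replicate 2 or ATRA replicate 2, at adjusted p from 0.0523 to 0.219. Set against the common library size that CPM refers to, the 6 genes went from 2.02% to 1.31%.

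Among the receptors for ATRA itself, RARB rose, RARG fell and RARA was near level. RARA, by far the most abundant of the 3 per length, was at 50.5 and 49.9 CPM in vehicle and 62.2 and 48.3 CPM with ATRA (0.14 ± 0.14, adjusted p = 0.466). RARB went from 0.626 and 0.922 CPM to 5.97 and 7.72 CPM, a change of 3.14 ± 0.34 (adjusted p = 1.49e-05). RARG went from 11.3 and 11.7 CPM to 7.30 and 5.44 CPM, a change of -0.86 ± 0.19 (adjusted p = 0.0028). In the deposited FPKM the mean of RARB went from 0.374 to 2.88 and that of RARG from 5.40 to 2.91, while RARA was at 21.4 and 24.1.

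Enzymes that handle retinoids moved as well. DHRS3, which reduces retinal to retinol, went from 8.09 and 10.3 CPM to 150 and 149 CPM (4.02 ± 0.16), and DHRS9, a related dehydrogenase, from 1.396 and 1.552 CPM to 11.8 and 15.8 CPM (3.23 ± 0.28). PLAAT4, also named RARRES3 for its response to retinoids, rose from 0.915 and 1.02 CPM to 14.2 and 14.4 CPM. RDH10, which makes retinal from retinol, fell from 14.7 and 11.9 CPM to 7.63 and 6.73 CPM. Of the hydroxylases that clear ATRA, which are known retinoid targets in other cells, CYP26B1 and CYP26C1 had no counts in either group and CYP26A1 had none in vehicle and 2 with ATRA, and none of the 3 was tested. Of 27 genes in this group 15 were tested, and 7 rose (46.7%) and 2 fell (13.3%), with a median log2 fold change of 0.36. Of 11 tested co-regulators of these receptors, 2 rose and 2 fell (18.2% each, below the 21.9% and 21.0% of all tested genes, so nothing is read from the list), each count being 1 in some fits without 1 library (vehicle replicate 2 or ATRA replicate 1 for the rises; either vehicle library, either LAA library or ATRA replicate 2 for the falls). NCOA3, a co-activator, rose from 25.9 and 21.1 CPM to 72.2 and 66.0 CPM, and KDM1A, a histone demethylase of co-repressor complexes, fell from 174 and 169 CPM to 109 and 98.0 CPM.

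The receptor pairs bind 2 copies of a short half-site on the same strand. Promoters were searched on both strands for 2 half-sites, where a half-site had the letters AGGTCA, or else AGTTCA, or else the form GGGTCA or the form GGTTCA, with 5 bases of any kind between them (called DR5) or 2 bases (called DR2), in the RefSeq windows from 250 bases before to 50 bases after each start site on GRCh38.p14. A DR5 was present in 29 of 27305 genes (0.106%), in 8 of the 10610 tested genes with a promoter window (0.0754%), in 3 of 827 genes that rose at least 2-fold (0.363%), in 0 of 611 that fell at least 2-fold and in 3 of 5708 not called (0.0526%). A DR2 was present in 14 of 27305 genes (0.0513%) and in 0 of 827 and 0 of 611 genes with a 2-fold rise or fall. The 3 rises with a DR5 were RARB, BATF2 and PRSS27, and their promoter stretches, which hold no DR2, are shown 5′ to 3′ on the strand of the gene with the half-sites in capitals, to show how alike and how different such sites can be. Each stretch reaches 20 bases to either side of the repeat but ends at the start site at the latest, which cuts that of BATF2. A match of letters is a description and not a bound site.
RARB (chr3:25428190-25428246, plus strand, half-sites from base -53 of the start): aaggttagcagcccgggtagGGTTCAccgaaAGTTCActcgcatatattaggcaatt
BATF2 (chr11:64990278-64990326, minus strand, from base -29): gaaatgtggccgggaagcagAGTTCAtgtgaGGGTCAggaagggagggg
PRSS27 (chr16:2720336-2720392, minus strand, from base -148): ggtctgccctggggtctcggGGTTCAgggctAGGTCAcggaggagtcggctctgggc
BATF2, a partner of JUN proteins known from macrophage activation, went from 0.915 and 0.534 CPM to 24.8 and 20.2 CPM, a change of 4.94 ± 0.26 (adjusted p = 3.76e-08). PRSS27, a membrane serine protease, went from 1.444 and 1.552 CPM to 3.43 and 3.84 CPM, a change of 1.28 (adjusted p = 0.0116, but 0.065 without vehicle replicate 1 and 0.0541 without ATRA replicate 2).

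As a list, factors of the myeloid lineage were called about as often as all tested genes. Of 32 tested beside the C/EBP genes 9 rose (28.1%) and 5 fell (15.6%, 2 genes without vehicle replicate 1), next to 21.9% and 21.0% of all tested genes, with a median of 0.18. Single members moved far. CEBPE, which is needed for late granulocyte genes, rose from 23.9 and 22.6 CPM to 111 and 113 CPM (2.27 ± 0.12), and CEBPB, of monocytes and macrophages, from 107 and 110 CPM to 462 and 388 CPM (1.97 ± 0.11). Of the 6 tested C/EBP genes 3 rose and 2 fell, and the falls were 1 without vehicle replicate 1 or ATRA replicate 1. SPI1, the PU.1 factor of all myeloid cells, rose from 149 and 157 CPM to 326 and 302 CPM. EGR1, an early response factor that also acts in monocyte maturation, rose from 1.11 and 0.631 CPM to 6.36 and 6.08 CPM. BCL11A, a repressor active in progenitors and lymphoid cells, fell from 62.5 and 58.3 CPM to 14.9 and 12.2 CPM, and ERG, a factor of haematopoietic stem cells, from 5.87 and 5.09 CPM to 1.77 and 2.03 CPM. ID1, which blocks basic helix-loop-helix factors, rose from 3.75 and 4.03 CPM to 54.0 and 57.4 CPM (3.84 ± 0.20), and ACVRL1, a receptor of BMP signalling, from 1.73 and 1.65 CPM to 14.9 and 12.99 CPM. Among 11 tested progenitor genes none rose, 5 fell (45.5%, next to 21.0% of all tested genes) and 6 were not called, with a median of -0.14. The falls included SMIM24, from 17.4 and 17.3 CPM to 6.53 and 7.42 CPM, and CD109, from 3.27 and 3.20 CPM to 0.608 and 0.734 CPM.

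The surface of the cells was described by 4 groups of receptors, and all of them held a higher share of rises than the 21.9% of all tested genes. Of 15 Fc and complement receptors tested 11 rose and 2 fell (1 without vehicle replicate 1, vehicle replicate 2 or ATRA replicate 2), with a median log2 fold change of 2.07. CD93, a receptor that helps take up dying cells, was the most abundant and rose from 526 and 497 CPM to 2338 and 2141 CPM, and FCGRT, the neonatal Fc receptor that recycles antibody, rose from 153 and 146 CPM to 750 and 813 CPM. CR1, the receptor for C3b, went from 9.43 and 9.90 CPM to 60.8 and 54.6 CPM. FCER1G, the signalling chain of several Fc receptors, rose from 36.1 and 43.0 CPM to 154 and 179 CPM, and the high-affinity FCGR1A, which has near-identical copies in the genome, from 13.2 and 15.7 CPM to 53.6 and 65.6 CPM. FCGR2B, the inhibitory Fc receptor, went the other way, from 18.4 and 24.6 CPM to 13.1 and 12.2 CPM (-0.77 ± 0.16, adjusted p = 0.00185).

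Inhibitory and paired receptors, which read self ligands such as sialic acid and MHC class I and restrain or tune myeloid cells, rose almost without exception. Of 31 tested, 27 rose and 1 fell, with a median of 1.47. VSIR, the checkpoint protein VISTA, rose from 49.6 and 54.9 CPM to 717 and 728 CPM (3.79 ± 0.11, adjusted p = 3.67e-10). LILRA5, an activating leukocyte immunoglobulin-like receptor, went from 0.674 and 0.534 CPM to 75.3 and 95.1 CPM (7.13 ± 0.24), and the inhibitory LILRB2 from 9.29 and 10.2 CPM to 78.0 and 75.8 CPM. LAIR1, a collagen receptor, rose from 122 and 129 CPM to 445 and 455 CPM, and SIRPA, the receptor for the CD47 signal, from 264 and 256 CPM to 565 and 524 CPM. CD300A and SIRPB1 rose by 2.70 ± 0.21 and 2.64 ± 0.14. The fall was that of SIGLEC6, from 89.4 and 92.5 CPM to 69.5 and 58.7 CPM (-0.51 ± 0.11). TYROBP, the DAP12 adaptor that carries the signal of several activating receptors, rose from 29.22 and 28.96 CPM to 215 and 217 CPM, and TREM1, one of the receptors that use it, from 0.915 and 0.922 CPM to 12.4 and 13.3 CPM.

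Chemoattractant receptors and integrins rose in the main. Of 14 tested receptors 11 rose and 1 fell (2 without vehicle replicate 2), with a median of 1.64. LTB4R, the leukotriene B4 receptor, went from 48.9 and 53.3 CPM to 227 and 199 CPM, CXCR4, the receptor that retains cells in marrow, from 184 and 214 CPM to 473 and 520 CPM, and CXCR2, a neutrophil chemokine receptor, from 7.27 and 8.34 CPM to 27.7 and 33.2 CPM. S1PR3, a sphingosine-1-phosphate receptor, fell from 16.6 and 17.8 CPM to 4.26 and 5.48 CPM. Of 19 integrin chains 10 rose and 1 fell, with a median of 0.91. ITGB2, the common CD18 chain that pairs with ITGAM, rose from 793 and 819 CPM to 2453 and 2210 CPM, ITGAX, the CD11c chain, from 8.62 and 7.81 CPM to 36.6 and 28.9 CPM, and ITGA6, a laminin receptor chain, from 193 and 175 CPM to 739 and 747 CPM. ITGA7, another laminin receptor chain, was the fall, from 17.4 and 16.2 CPM to 10.8 and 8.85 CPM. ITGA4 was at 359 and 331 CPM and at 299.7 and 313 CPM (-0.17 ± 0.10, adjusted p = 0.196).

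Of 23 pattern recognition receptors and adaptors 13 rose (56.5%) and 4 fell (17.4%), next to 21.9% and 21.0% of all tested genes. Fewer of the falls were called without vehicle replicate 2 or ATRA replicate 1. NLRC4, an inflammasome sensor, rose from 2.55 and 2.77 CPM to 29.3 and 32.9 CPM, and TLR4, the endotoxin receptor, from 33.4 and 32.1 CPM to 86.4 and 86.9 CPM. PYCARD, the inflammasome adaptor, rose from 139 and 142 CPM to 291 and 266 CPM. CLEC5A, a lectin receptor, fell from 43.8 and 44.4 CPM to 29.8 and 32.3 CPM, a call lost without ATRA replicate 1 (adjusted p = 0.0504). The other falls were at low levels. TLR9, a sensor of DNA, went from 3.03 and 5.09 CPM to 0.9401 and 0.992 CPM, and its call was lost without vehicle replicate 2 (adjusted p = 0.0756). NOD2, a sensor of bacterial wall fragments, went from 3.85 and 5.72 CPM to 1.66 and 2.503 CPM, and its adjusted p was 0.0952 once vehicle replicate 2 was left out and 0.0575 once ATRA replicate 1 was. TICAM2, an adaptor of TLR4, went from 0.626 and 1.89 CPM to no counts, and its adjusted p was 0.0569 once vehicle replicate 2 was left out and 0.0529 once ATRA replicate 2 was. Of 21 tested cytokine receptors 9 rose (42.9%) and 1 fell (4.76%), with a median of 0.29. In both directions together 47.6% were called, near the 42.9% of all tested genes. The number of falls changed without ATRA replicate 2. CSF3R, the G-CSF receptor, rose from 96.1 and 103 CPM to 384 and 316 CPM, CSF1R, the M-CSF receptor, from 1.93 and 2.77 CPM to 12.7 and 10.7 CPM, and IL10RA from 10.0 and 11.5 CPM to 39.4 and 36.9 CPM. IL18R1 fell from 11.1 and 10.4 CPM to 4.42 and 3.88 CPM. Among 21 secreted cytokines and chemokines 6 rose and 3 fell, close to the shares of all genes. CCL23 rose from 1.35 and 2.52 CPM to 21.8 and 24.8 CPM and TNFSF13 from 10.2 and 12.6 CPM to 34.7 and 36.2 CPM, while VEGFA fell from 107 and 115 CPM to 53.9 and 44.6 CPM, IL1RN from 10.8 and 13.3 CPM to 3.65 and 4.01 CPM and CCL5 from 138 and 157 CPM to 71.9 and 84.9 CPM.

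**Figure D3:**
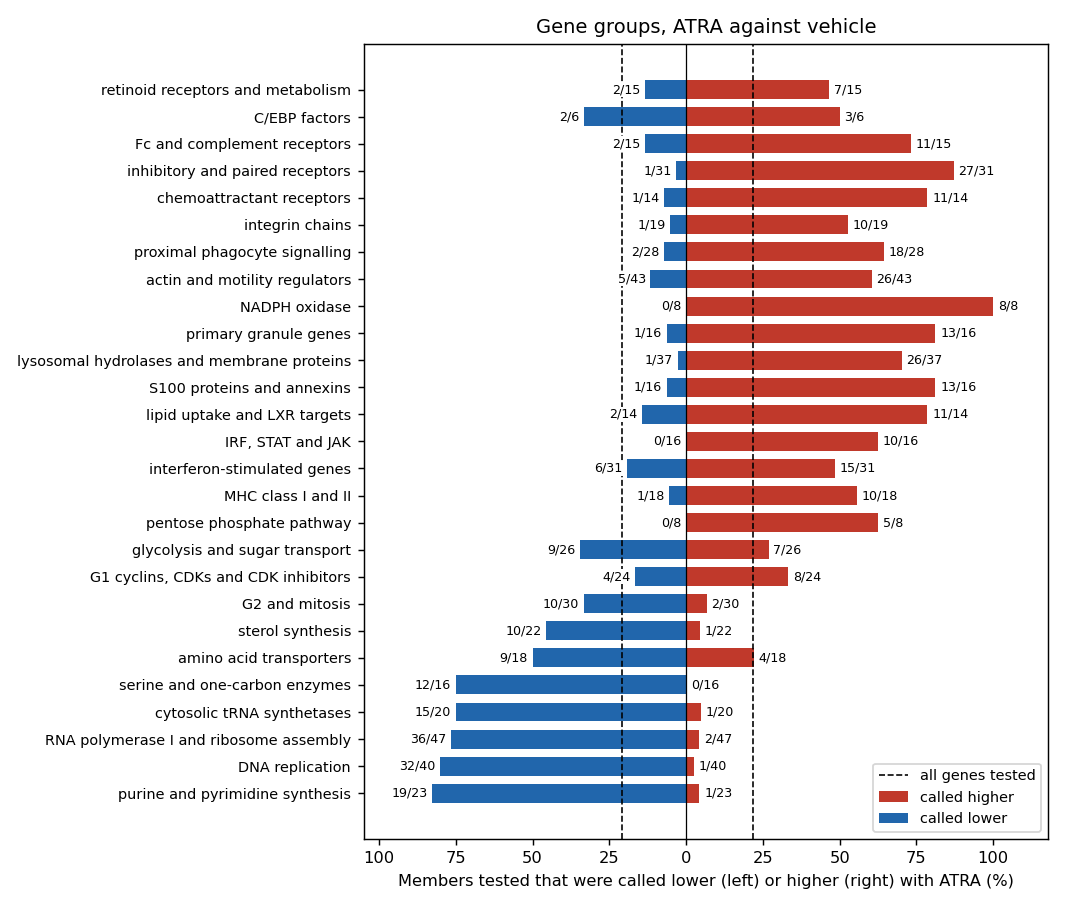
For 27 gene groups, the bars give the percent of tested members called higher (right, red) or lower (left, blue) with ATRA, with the counts beside them; dashed lines mark the shares of all 14995 tested genes, 21.9% higher and 21.0% lower. Phagocyte groups extend to the right, with all 8 NADPH oxidase genes higher, and groups of nucleotide, amino acid, ribosome and DNA synthesis extend to the left.

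Kinases and adaptors that act directly under these receptors rose in 18 of 28 tested cases (64.3%) and fell in 2 (7.14%), with a median of 0.46. Of all tested genes 21.9% rose and 21.0% fell. FGR, a Src-family kinase of myeloid cells, rose from 19.7 and 22.7 CPM to 488 and 467 CPM (4.49 ± 0.12, adjusted p = 2.83e-10). PIK3CG, the phosphoinositide kinase of chemoattractant receptors, rose from 71.2 and 66.6 CPM to 428 and 461 CPM (2.69 ± 0.10). VAV1, LCP2 and FES rose by 1.079, 1.058 and 1.065, and SYK by 0.46. BTK was at 191 and 202 CPM and at 157 and 185 CPM (-0.20 ± 0.11, adjusted p = 0.166). The 2 falls were FYN, from 12.7 and 14.3 CPM to 3.76 and 3.67 CPM, and YES1, from 8.37 and 8.30 CPM to 3.26 and 2.98 CPM, both Src-family kinases of wide tissue distribution.

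Some families held members called in opposite directions, which are shown per length in the authors' deposited FPKM and were picked once their values were known. FGR had a mean of 10.5 FPKM in vehicle, next to FYN at 10.5 and 9.89 FPKM. With ATRA FGR stood at 237 and 227 FPKM and FYN at 1.69 and 2.14 FPKM. Among hexokinases, HK2 was the higher in vehicle, at 30.7 and 36.6 FPKM against 2.10 and 5.18 FPKM of HK3, and with ATRA HK3 was the higher, at 213 and 190 FPKM against 10.5 and 7.50 FPKM. The 2 vehicle values of HK3 differed more in FPKM than in CPM (5.198 and 5.093). BATF2 passed BATF3 in the same way, from 0.503 and 0.293 FPKM against 23.9 and 23.7 FPKM to 14.3 and 11.6 FPKM against 8.55 and 8.96 FPKM. The monocarboxylate transporters SLC16A3 and SLC16A1 and the cyclins CCND3 and CCND2 moved apart without a change of order.

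**Figure D4:**
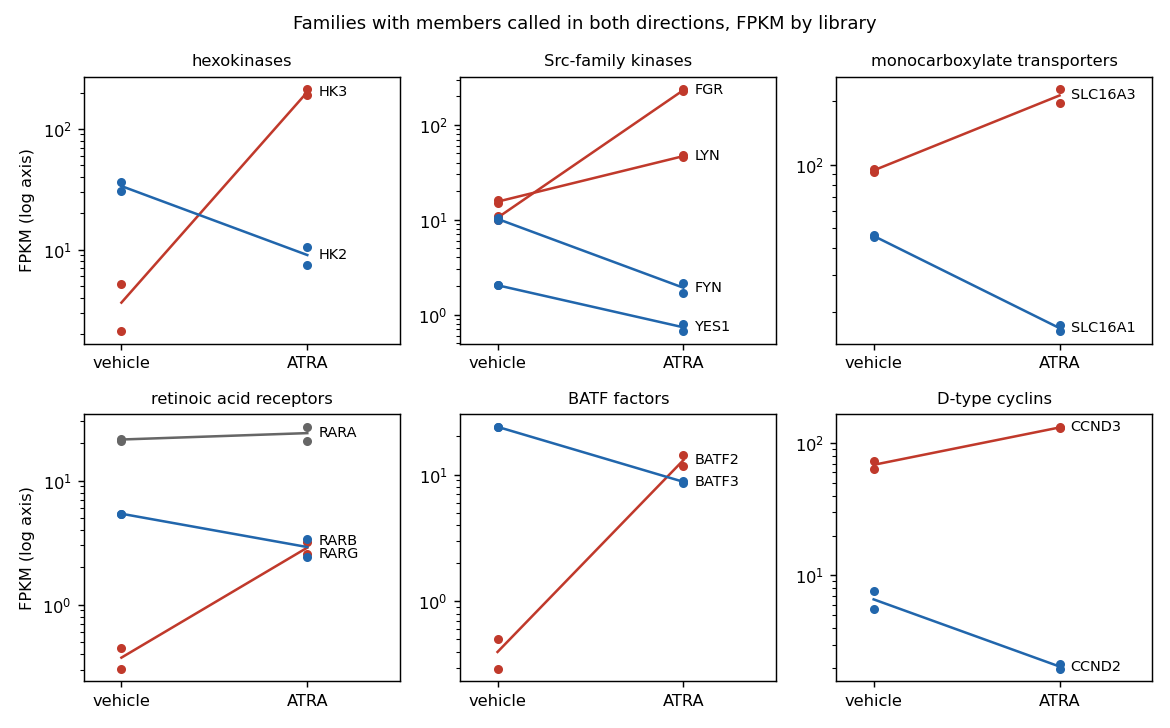
Deposited FPKM (y, log axis) in the vehicle and ATRA libraries for members of 6 families; points are libraries, lines join group means, red is called higher, blue called lower and grey not called. HK3 and BATF2 start below and end above HK2 and BATF3, FGR starts level with FYN and ends as the highest of the Src-family kinases shown, and RARB reaches the level of RARG.

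The machinery of movement rose in part. Of 43 actin and motility genes 26 rose (60.5%) and 5 fell (11.6%), next to 21.9% and 21.0% of all tested genes. Their median was 0.57, and fewer of the falls were called without vehicle replicate 1 or vehicle replicate 2. TMSB10, an actin-binding thymosin, rose from 291 and 334 CPM to 948 and 1271 CPM, ARPC1B and ARPC4, subunits of the ARP2/3 complex, by 1.25 ± 0.11 and 1.46 ± 0.11, and GSN, the severing protein gelsolin, from 31.7 and 31.6 CPM to 104 and 84.5 CPM. PFN1, profilin, rose from 1064 and 1159 CPM to 2186 and 2125 CPM. VIM, the intermediate filament vimentin, was the strongest fall of the group, from 561 and 667 CPM to 85.3 and 52.6 CPM (-3.16 ± 0.23, adjusted p = 5.40e-07). ELMO1, which drives engulfment through RAC1, fell from 58.7 and 58.9 CPM to 40.6 and 35.1 CPM.

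All 8 genes of the phagocyte NADPH oxidase, the enzyme that makes superoxide, rose, next to 21.9% of all tested genes, with a median of 1.44. CYBB, the catalytic gp91phox chain, went from 3.13 and 4.03 CPM to 134 and 123.3 CPM (5.17 ± 0.16), and its membrane partner CYBA from 202 and 197 CPM to 644 and 656 CPM. Of the cytosolic subunits, NCF4 rose from 98.0 and 100.3 CPM to 212 and 233 CPM. NCF1 went from 1.73 and 1.60 CPM to 181 and 141 CPM, and its copies NCF1B and NCF1C, annotated as pseudogenes, from 0.578 and 1.07 CPM to 74.8 and 55.1 CPM and from 0.626 and 1.75 CPM to 147.7 and 123.3 CPM. The 3 are nearly identical, so the split between them is uncertain, while their directions are alike.

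Granule genes rose with few exceptions. Of 16 primary granule genes tested 13 rose (81.2%) and 1 fell (6.25%), with a median of 1.11. The neighbouring proteases AZU1, PRTN3 and ELANE, which lie between 825097 and 856247 on chromosome 19 (GRCh38), rose by 1.04 ± 0.14, 2.005 ± 0.10 and 1.12 ± 0.10, and PRTN3 went from 494 and 551 CPM to 2164 and 2033 CPM. CTSG, a protease of chromosome 14, rose from 1825 and 1782 CPM to 2618 and 3145 CPM, and RNASE3, a toxic ribonuclease, from 67.3 and 72.4 CPM to 142 and 156 CPM. CST7, cystatin F, which inhibits the activation of such proteases, was the fall, from 1198 and 1246 CPM to 342 and 354 CPM (-1.81 ± 0.10). LYZ was at 446 and 499.5 CPM and at 528 and 607 CPM (0.26 ± 0.17, adjusted p = 0.223). Of 18 genes of secondary and tertiary granules, which appear late in neutrophils, 7 were tested, mostly at low levels. Of these, 6 rose (85.7%) and 1 fell (14.3%), next to 21.9% and 21.0% of all tested genes. Their median log2 fold change was 2.69, or 2.52 with groups without counts set at the floor of 3 counts. The fall had a fitted value of -4.87, given without the level of its gene, so no fold is read from it. HP, haptoglobin, rose from 0.529 and 0.388 CPM to 15.3 and 16.4 CPM, CHI3L1 from 20.4 and 20.4 CPM to 136 and 128 CPM, and CAMP, cathelicidin, from 0.529 and 0.922 CPM to 3.59 and 4.75 CPM. LCN2, OLFM4 and ARG1 had no counts in either group, and LTF had 3 in vehicle and none with ATRA. The S100 proteins and annexins, calcium-binding proteins of phagocytes, rose in 13 of 16 tested cases (81.2%) and fell in 1 (6.25%), with a median of 0.83. S100A9 rose from 3.56 and 3.30 CPM to 46.5 and 62.7 CPM and its partner S100A8 from 0.963 and 1.07 CPM to 4.81 and 7.90 CPM, ANXA1 rose by 1.64 ± 0.11, and ANXA2 fell by 0.58.

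Markers of monocytes and macrophages rose more often than they fell. Of 27 such genes 19 were tested, and 11 rose (57.9%) and 3 fell (15.8%), next to 21.9% and 21.0% of all tested genes. The lowest fitted log2 fold change among the 19 was -6.55, given without the level of its gene, so no fold is read from it. CD68, a lysosomal glycoprotein of macrophages, rose from 59.3 and 69.6 CPM to 502 and 466 CPM, MERTK, a receptor for dying cells, from 20.4 and 18.2 CPM to 73.0 and 75.7 CPM, and ADGRE1 from 1.01 and 1.26 CPM to 11.7 and 13.2 CPM. LGALS3, galectin 3, fell from 24.3 and 26.8 CPM to 4.87 and 6.73 CPM and FCN1, ficolin 1 of classical monocytes, from 16.5 and 14.5 CPM to 8.18 and 7.21 CPM. GPNMB was at 306 and 305 CPM and at 277 and 268 CPM (adjusted p = 0.169). MRC1 and MSR1, scavenger receptors of tissue macrophages, had no counts in either group, and CD163 had 5 in vehicle and 3 with ATRA. MS4A4A and THBD, surface genes outside the lists, were among those with the smallest adjusted p. They were picked once their values were known, so nothing about the markers is read from them. MS4A4A went from 2.65 and 2.43 CPM to 141 and 169 CPM and THBD, thrombomodulin, from 15.4 and 12.5 CPM to 841 and 707 CPM.

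Of 37 lysosomal hydrolases and membrane proteins tested 26 rose (70.3%) and 1 fell (2.7%), next to 21.9% and 21.0% of all tested genes. The fall was not called without vehicle replicate 1 or ATRA replicate 1. The median of the 37 was 0.76, and their summed level went from 8730 and 8604 CPM to 40162 and 37096 CPM. Most of that gain was CTSD itself, and without it the sum went from 6293 and 6061 CPM to 12433 and 11979 CPM. GRN, progranulin, rose from 396 and 393 CPM to 2498 and 2131 CPM (2.55 ± 0.11), PSAP, the precursor of the saposins, from 457 and 409 CPM to 1322 and 1308 CPM, GUSB, a glucuronidase, from 166 and 156 CPM to 478 and 453 CPM, and TPP1, a tripeptidase, from 207 and 205 CPM to 611 and 563 CPM. TFEB and TFE3, the factors that switch on lysosomal genes, rose by 1.26 ± 0.11 and 0.97 ± 0.11. Subunits of the V-ATPase, the pump that acidifies lysosomes, rose in 11 of 19 tested cases (57.9%) and fell in 2 (10.5%). Fewer of the rises were called without vehicle replicate 2. ATP6V0D1 rose from 42.5 and 37.3 CPM to 121.8 and 117.3 CPM.

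Enzymes that act on lipids and on NAD changed in both directions. PTGS1, cyclooxygenase 1, rose from 73.30 and 80.04 CPM to 881 and 811 CPM (3.46 ± 0.11, adjusted p = 8.73e-10), and ALOX5AP, the protein that feeds 5-lipoxygenase, from 46.4 and 49.4 CPM to 323 and 349.7 CPM. LTA4H, which makes leukotriene B4, fell from 95.1 and 97.0 CPM to 66.4 and 71.1 CPM. Of 11 eicosanoid enzymes tested 5 rose (45.5%) and 3 fell (27.3%), next to 21.9% and 21.0% of all tested genes. TGM5, a relative of TGM2, rose from 19.7 and 26.1 CPM to 57.6 and 64.8 CPM, and 4 of 6 tested transglutaminases rose (66.7%) and none fell. Beside CD38 its neighbour and relative BST1 rose from 30.1 and 26.3 CPM to 59.5 and 63.1 CPM, and NADK, which turns NAD into NADP, from 132 and 137 CPM to 295 and 281 CPM. NAMPT, which rebuilds NAD from nicotinamide, fell from 82.7 and 85.0 CPM to 26.5 and 36.0 CPM (-1.42 ± 0.13). Of 14 tested genes of lipid uptake and of targets of the liver X receptor 11 rose (78.6%) and 2 fell (14.3%), with a median of 1.25. Fewer of the falls were called without either vehicle library, either LAA library, either ATRA library or LAA+ATRA replicate 1. CD36, a fatty acid and scavenger receptor, rose from 11.1 and 11.4 CPM to 207 and 249.7 CPM, NR1H3, the liver X receptor alpha, from 6.55 and 7.37 CPM to 58.6 and 64.4 CPM, and PLTP from 68.54 and 68.01 CPM to 386 and 399.6 CPM. Of 22 tested genes of sterol synthesis 1 rose (4.55%) and 10 fell (45.5%). Among the falls was HMGCS1, from 181 and 208 CPM to 100.5 and 117.4 CPM. The number of rises changed without ATRA replicate 2 or either LAA+ATRA library.

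Genes of the interferon system rose in part. IRF1, a factor induced by interferon and by retinoids, rose from 16.46 and 14.02 CPM to 136 and 141 CPM (3.18 ± 0.12). IRF7 rose from 7.36 and 8.10 CPM to 28.98 and 24.90 CPM and STAT2 from 36.4 and 38.4 CPM to 96.5 and 78.4 CPM. Of the 16 tested IRF, STAT and JAK genes 10 rose (62.5%) and none fell, next to 21.9% and 21.0% of all tested genes. Of 31 interferon-stimulated genes tested 15 rose (48.4%) and 6 fell (19.4%), with a median of 0.66. Fewer of the falls were called without vehicle replicate 1 or vehicle replicate 2. OAS1, an RNA sensor, went from 3.56 and 3.10 CPM to 46.5 and 46.1 CPM, SAMHD1, which destroys deoxynucleotides, from 5.58 and 5.63 CPM to 53.3 and 47.0 CPM, and IFI6 from 49.7 and 46.4 CPM to 226 and 236 CPM, while USP18, the protease that damps interferon signals, fell from 12.6 and 11.8 CPM to 6.30 and 7.03 CPM. Of 18 MHC genes 10 rose (55.6%) and 1 fell (5.56%). HLA-C rose from 909 and 912 CPM to 1880.2 and 1880.2 CPM, and HLA-DMA, a class II peptide loader, from 3.75 and 4.75 CPM to 13.4 and 12.7 CPM.

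Genes of sugar metabolism did not move in one direction. Of 26 glycolysis and sugar transport genes 7 rose (26.9%) and 9 fell (34.6%), next to 21.9% and 21.0% of all tested genes, and the falls were 5 without vehicle replicate 2 or ATRA replicate 2. HK3 rose from 5.198 and 5.093 CPM to 326 and 305 CPM (5.94 ± 0.15, adjusted p = 1.76e-10) and SLC2A5, the fructose transporter, from 93.4 and 116 CPM to 876 and 752 CPM, and SLC16A3, which exports lactate, rose from 216 and 221 CPM to 555 and 459 CPM. HK2 fell from 159 and 189 CPM to 53.9 and 38.9 CPM and SLC16A1, which carries lactate and pyruvate, from 153 and 152 CPM to 53.0 and 60.8 CPM. In the pentose phosphate pathway, the source of the NADPH that the oxidase uses, 5 of 8 tested genes rose (62.5%) and none fell. PGD, the phosphogluconate dehydrogenase, rose from 308 and 319.9 CPM to 1376 and 1448 CPM (2.17 ± 0.10) and H6PD by 1.04 ± 0.13, and TALDO1 was at 357 and 366 CPM and at 396 and 423 CPM (adjusted p = 0.133).

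Of 16 tested enzymes of serine and one-carbon metabolism none rose and 12 fell (75.0%, next to 21.0% of all tested genes), with a median of -0.95. PHGDH and PSAT1, the first enzymes of serine synthesis, went from 481 and 466 CPM to 125 and 129 CPM and from 180.1 and 169 CPM to 29.3 and 30.9 CPM. MTHFD1L and MTHFD2, the mitochondrial folate enzymes, fell by 1.98 ± 0.10 and 1.47 ± 0.10, and CBS, which turns homocysteine into cystathionine, went from 37.7 and 36.4 CPM to 5.198 and 5.91 CPM (-2.73 ± 0.18). Of 18 amino acid transporters 9 fell and 4 rose: SLC7A5, the leucine carrier, fell from 275 and 279.5 CPM to 88.0 and 73.8 CPM, and SLC7A7, a carrier of basic amino acids, rose from 3.85 and 4.12 CPM to 15.1 and 13.5 CPM.

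Of 23 tested genes of purine and pyrimidine synthesis 19 fell (82.6%, next to 21.0% of all tested genes) and 1 rose (2 without either LAA+ATRA library), with a median of -0.82, and 3 of the falls were at least 2-fold. PPAT, the committed step of purine synthesis, fell from 44.3 and 48.5 CPM to 13.44 and 17.04 CPM, PAICS from 321 and 343 CPM to 114 and 111 CPM, IMPDH2 from 400.4 and 429.6 CPM to 189 and 197 CPM, and CAD, the first enzyme of pyrimidine synthesis, from 220.4 and 217 CPM to 128 and 104 CPM. RRM2, a subunit of ribonucleotide reductase, was the rise, from 289 and 291 CPM to 408 and 419.5 CPM. On the deposited FPKM that rise was 0.08 on the log2 scale and was not called (adjusted p = 0.663 with limma).

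Of 20 cytosolic tRNA synthetases, the enzymes that load tRNA, 15 fell (75.0%, next to 21.0% of all tested genes) and 1 rose, with a median of -0.73. IARS1 fell from 289 and 259 CPM to 92.2 and 87.8 CPM and GARS1 from 287 and 282 CPM to 109.5 and 116.98 CPM. The rise was that of WARS1, the tryptophan enzyme that interferon also induces, from 102 and 98.5 CPM to 191 and 184 CPM. Of 47 genes of RNA polymerase I and ribosome assembly 36 fell (76.6%) and 2 rose (1 without any 1 of the vehicle, LAA or ATRA libraries), with a median of -0.66. POLR1E fell from 42.5 and 45.2 CPM to 16.5 and 17.1 CPM, NPM1, the nucleolar protein nucleophosmin, from 1383 and 1488 CPM to 661 and 782 CPM, and HEATR1 from 130.1 and 117.2 CPM to 58.9 and 53.6 CPM, while NOP10 rose from 75.6 and 79.7 CPM to 116 and 139 CPM. The ribosomal proteins themselves fell in 20 of 83 tested cases, near the 21.0% of all genes, and that count was 11 without vehicle replicate 1, 8 without vehicle replicate 2 and 10 without ATRA replicate 1, so no change of the set was read from it.

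DNA replication genes fell widely but by small amounts. Of 40 tested 32 fell and 1 rose, with a median of -0.50. POLD2, a subunit of DNA polymerase delta, fell from 336 and 343 CPM to 134 and 132 CPM (-1.35 ± 0.09), CDT1, which loads the MCM helicase, from 202 and 227 CPM to 102 and 73.6 CPM, MCM2 from 334 and 307 CPM to 196 and 184 CPM and RFC1 from 122.9 and 119.1 CPM to 62.8 and 65.1 CPM. ORC6, of the origin recognition complex, was the rise, from 33.6 and 36.0 CPM to 71.6 and 83.1 CPM (1.15 ± 0.11). FEN1 was at 83.0 and 90.2 CPM and at 81.2 and 90.6 CPM (adjusted p = 0.948). Genes of G2 and mitosis had a median of -0.20. Of 30 tested 10 were called lower (33.3%) and 2 higher (6.67%), next to 21.0% and 21.9% of all tested genes. In both directions together 40.0% were called, near the 42.9% of all tested genes. Both counts were smaller without vehicle replicate 1 or vehicle replicate 2, and that of the rises also without either LAA library or ATRA replicate 1. Nothing is read from these counts. TOP2A was at 383 and 364 CPM and at 328 and 343 CPM (adjusted p = 0.228) and CDK1 at 107 and 106 CPM and at 86.6 and 113 CPM (adjusted p = 0.581).

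MYC, a factor that promotes growth and ribosome synthesis, fell from 389.9 and 361 CPM to 75.7 and 69.9 CPM (-2.37 ± 0.11, adjusted p = 1.11e-08). Its antagonist MXD4 rose from 35.0 and 27.1 CPM to 71.4 and 62.7 CPM, while MXI1, of the same family, fell from 61.7 and 63.9 CPM to 29.1 and 28.0 CPM. Of 24 G1 cyclins, kinases and inhibitors 8 rose (33.3%) and 4 fell (16.7%), not far from the 21.9% and 21.0% of all tested genes, with a median of 0.04. CDK6 fell from 206 and 187 CPM to 69.7 and 69.4 CPM and CCND2 from 32.5 and 37.6 CPM to 11.2 and 12.5 CPM, and CDKN2D, the p19 inhibitor of CDK4 and CDK6, rose from 12.996 and 12.42 CPM to 46.9 and 53.1 CPM. CCND3 rose from 125 and 111 CPM to 234 and 218 CPM. Of 15 tested members of the BCL2 family of cell death regulators 7 rose (46.7%) and 2 fell (13.3%), next to 21.9% and 21.0% of all tested genes. The lowest fitted log2 fold change among the 15 was -5.44, given without the level of its gene, so no fold is read from it. The members named next are only a part of those called, and no shift toward death or survival is read from them. BCL2, which protects cells, fell from 36.9 and 41.2 CPM to 13.1 and 10.6 CPM, and BMF and BAK1, which promote death, rose from 27.3 and 26.9 CPM to 70.0 and 69.6 CPM and from 42.3 and 37.9 CPM to 75.2 and 82.8 CPM.

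The ATRA effect could be measured a further time in the 4 libraries with LAA, which share no library with the comparison above but share its estimate of spread. With LAA present 5451 of 14995 genes were called (36.4%), and 4694 genes were called the same way in both comparisons, which is 73.0% of the calls without LAA and 86.1% of those with LAA. 1 gene that rose without LAA was called lower with it, and no gene that fell was called higher. Of the 1269 genes that rose at least 2-fold, 1026 were called higher with LAA as well, and in 1195 both LAA+ATRA libraries lay above both LAA libraries. Of the 904 that fell at least 2-fold, 700 were called lower with LAA, and in 828 the libraries were apart in the same direction. The medians of these genes, chosen for their size without LAA, were 1.64 without and 1.30 with LAA for the rises and -1.56 and -1.19 for the falls. The share of all tested genes with libraries apart was 71.9% for ATRA against vehicle, in either direction. It was not counted with LAA, so nothing is read from the 1195 and 828. CD38 changed by 6.97 without and 7.06 with LAA, CTSD by 3.41 and 3.27, CYBB by 5.17 and 4.44, PHGDH by -1.90 and -1.44 and MYC by -2.37 and -2.04. In the test of the difference between the 2 comparisons 1 gene was called (0.00667%), EIF3CL, and without ATRA replicate 1 or ATRA replicate 2 there were 15 and 4. RARB changed by 3.14 and 4.96 without that difference being called (adjusted p = 0.843).

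**Figure D5:**
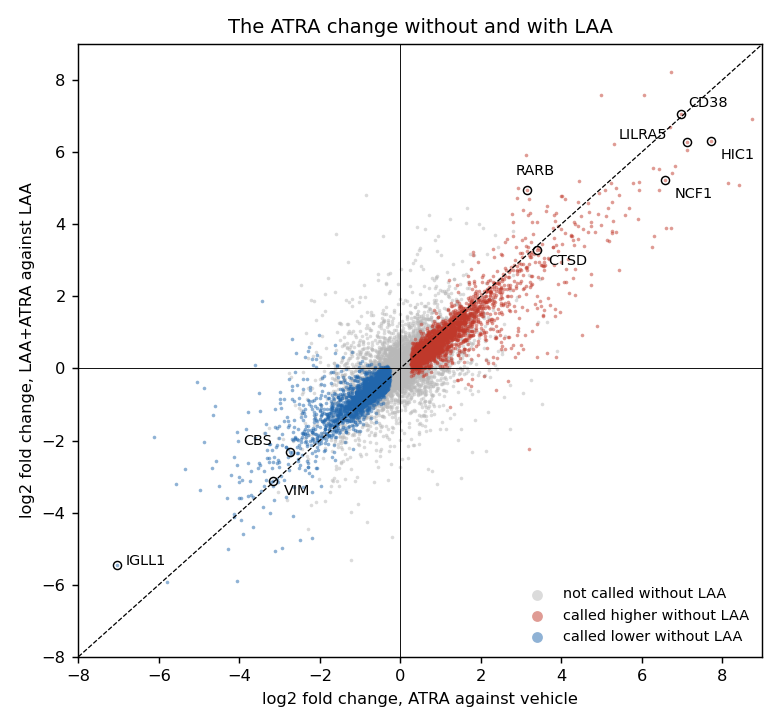
Each point is a gene, placed by its log2 fold change for ATRA against vehicle (x) and for LAA+ATRA against LAA (y), coloured by its call without LAA; the dashed line marks equal change, and 184 genes with no counts in a group are left out. Coloured points lie along the line in the upper right and lower left quadrants, with rings on named genes such as CD38 at 6.97 and 7.06.

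The threshold divides genes that differ little. Just inside it lay ZBTB11, from 30.5 and 25.6 CPM to 18.8 and 23.5 CPM (adjusted p = 0.04994), and RNF141, from 25.4 and 21.3 CPM to 28.6 and 31.6 CPM (adjusted p = 0.04994). Just outside lay PRPF4, at 66.37 and 61.99 CPM and at 51.0 and 55.8 CPM (adjusted p = 0.05002), and FBXW8, at 10.9 and 11.9 CPM and at 9.12 and 6.30 CPM (adjusted p = 0.05006).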

How the data were processed

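RNA from 8 libraries of U-937 cells was sequenced, 2 in each of 4 groups. Per the submitters' processing notes, reads were quantified with Salmon 1.8.0 and DESeq2 1.36.0 was used, on GRCh38. No source used here gives the annotation release, the strand setting or the gene lengths behind FPKM. The authors deposited estimated counts per gene, and separately the authors deposited FPKM, which divide by gene length and library size and keep no depth. Rounding to whole numbers changed 16.5% of the estimated counts. Of 61125 gene IDs, 35174 had a symbol in the file, 25882 were given one by a table of gene names and 8 had none, and 57933 matched GENCODE 29, the source of positions.

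Counts were filtered with filterByExpr, scaled by TMM and fitted over all 8 libraries as 4 group means with edgeR 4.0.16 (R 4.3.3, quasi-likelihood F test, Benjamini-Hochberg adjustment over 14995 genes, threshold 0.05), which shares 1 estimate of spread. The code was tested on simulated data. Alternatives were DESeq2 1.42.0, other scaling, no filter, limma 3.58.1 on log2 of FPKM plus 1 or plus 0.1, length and GC offsets, a replicate block and leaving out each library. A group with no counts was set to a floor of 3 counts over the group for a lower bound of fold.

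Genes were named by rule: CD38, TGM2, HIC1 and ITGAM; the 8 largest rises and falls among genes whose groups did not overlap and whose higher group averaged 5 CPM or more; the 6 genes that gained and the 6 that lost most CPM; and, from each gene list, the members with the smallest adjusted p and those against the majority, with others where their role is described. Members and lists were chosen with earlier results of these data known. MS4A4A and THBD lie outside the lists and these rules and were picked once their values were known. A promoter match was counted in any promoter of a gene, a choice made after a first count with 1 promoter per gene.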

Additional observations from a re-analysis of the deposited data

Results flagged for a closer look

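EIF3CL was the 1 gene called in the test of the difference between the ATRA effects without and with LAA. The number called depended on the setting, with 13 genes in DESeq2, 136 without the low-count filter and 15 without ATRA replicate 1. Its log2 fold change with LAA minus that without LAA was 12.6 (edgeR's quasi-likelihood test, adjusted p = 0.00106). It stood at 22.5 and 34.3 CPM in vehicle, at 0 in both ATRA libraries, at 33.3 and 15.4 CPM with LAA and at 30.7 and 37.9 CPM with LAA+ATRA. The size of the fitted value depends on how the group with no counts is handled and is no measured fold. EIF3C, the near-identical copy, was at 475 and 471 CPM in vehicle, 334 and 272 CPM with ATRA, 429 and 495 CPM with LAA and 268 and 279 CPM with LAA+ATRA. The part that read assignment between the 2 copies had in the difference was not tested.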

How the results depend on the processing

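The number of genes called was 6428, and 6025 with DESeq2, 6429 with the other size factors, 6635 without the low-count filter, 7039 with length and GC offsets and 4952 with limma on log2(FPKM + 1), which called 71.2% of the same genes and gave 29 of the 6428 the opposite sign (30 on unfiltered FPKM). Limma on unfiltered FPKM called 4163 genes, 1932 of them lower, 1274 with at least a 2-fold change, 3352 with LAA and 2691 the same way in both comparisons, and limma on filtered FPKM called 1410 with at least a 2-fold change. Leaving out 1 library at a time gave 4461 to 6632 called, 2338 to 3370 higher, 2123 to 3274 lower, 1872 to 2196 changed at least 2-fold, 3660 to 5872 with LAA, 3342 to 4472 in both and 1 to 15 for the difference between comparisons. That last count, 1, was 13 with DESeq2, 136 without the filter and 2, 3 and 10 with limma on log2(FPKM + 1), log2(FPKM + 0.1) and unfiltered FPKM; it could not be fitted from the compared libraries alone. With a replicate block 6142 genes were called. Same-numbered libraries correlated between -0.0727 and 0.0771 in their deviations from the group means. These correlations do not settle whether same-numbered libraries were cultured or prepared together. Of 209 called genes named, 191 were called in every alternative, 17 were lost on FPKM with limma in at least 1 setting and 8 when 1 library was left out. Genes at a few counts per library, such as VSIG4 in vehicle, are limited by depth.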
